A study of Homo sapiens with 6 samples.

Results

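Open chromatin of MCF-10A cells carrying PIK3CA H1047R was set beside that of parental MCF-10A cells with wild-type PIK3CA (WT). MCF-10A is a non-tumorigenic line of human mammary epithelial cells. Accessibility was measured by ATAC-seq, where the Tn5 transposase cuts and tags accessible DNA. The labels give 2 samples per genotype, and the deposited data hold 1 peak list per genotype, called from both samples together. Another list came from PIK3CA E545K cells and serves below for values side by side. Maintenance medium held 20 ng/ml EGF for the parental cells and no EGF for both knock-in lines. For the last 24 h all cells stood in the same medium, with 1% stripped serum, 0.2 ng/ml EGF, insulin, hydrocortisone and cholera toxin. Differences below may therefore go with the genotype, with the maintenance medium or with the separate culture of a derived line, which cannot be told apart. The labels do not say how many H1047R clones were used.

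The H1047R list held 106747 peaks and the WT list 98910, together 205657 of the 295073 peaks of the 3 lists. Peaks of the 2 lists that shared 1 bp or more were partners. Partnered peaks were compared by area (the caller's curve summed along the peak), by the summit value (-log10 p at the highest position, on a log10 scale) and by width. A fold in area is a ratio of such sums and not a measured fold in accessibility. Unpartnered peaks were described by place and gene. Since a list pools its samples, it gives no spread between replicates and no depth, so no test was possible and each difference describes these 2 lists. Intervals on shares are 95% Wilson intervals, which cover counting error only.

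PIK3CA encodes p110-alpha, the catalytic subunit of a class I phosphoinositide 3-kinase that turns the membrane lipid PIP2 into PIP3. PIP3 recruits and activates AKT, which acts on mTOR complex 1 and keeps FOXO transcription factors out of the nucleus. The H1047R substitution lies in the kinase domain and is among the most frequent PIK3CA mutations of breast cancer. In mammary epithelium the pathway runs beside the EGF receptor and MAPK pathway, and both act on growth, survival and attachment to the basement membrane.

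The lists fitted the labelled cell type by their promoters, taken as 1 kb on either side of each protein-coding start. A promoter peak stood in both lists at 14 of 17 basal and myoepithelial markers, among them KRT5, KRT6A, KRT17 and SFN, and at 13 of 19 luminal markers, among them KRT7, KRT8, KRT18 and GATA3. It stood in neither list at 15 of 18 immune markers, PTPRC and CD3E included, and at 10 of 14 neural and endothelial markers, PECAM1 and VWF included. The 20 mesenchymal and fibroblast genes were split. A promoter peak stood in both lists at 11, in WT alone at 1 and in neither at 8, among the last DCN, LUM and PDGFRB. Peak positions do not show the edited base. The 2 strong PIK3CA pairs stayed within 2-fold, and the promoter peak had an area of 7244 in H1047R and 7476 in WT.

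Stretches of 201 bases around a summit are printed here for 3 of the motifs whose share differed between H1047R-higher and WT-higher pairs, each on the plus strand of hg38 with the motif in capitals on whichever strand it was found. The glucocorticoid receptor element is a palindrome of paired half-sites around a short free spacer, and the TEAD motif was searched as GGAATG. The NF-kB motif is a degenerate element of 10 letters. The NF-kB examples lay at pairs with a larger area in H1047R, and the others at pairs with a larger area in WT. For each motif they were taken from such pairs with a high summit value whose printed bases touch no exon, with a gene start within 100 kb. They carry the name of the gene with the nearest start.
PHLDA3, NF-kB, chr1:201476671-201476871: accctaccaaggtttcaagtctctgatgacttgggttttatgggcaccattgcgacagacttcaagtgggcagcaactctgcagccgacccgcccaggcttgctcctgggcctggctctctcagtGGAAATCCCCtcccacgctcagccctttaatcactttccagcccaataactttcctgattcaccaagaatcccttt
BDKRB1, NF-kB, chr14:96269064-96269264: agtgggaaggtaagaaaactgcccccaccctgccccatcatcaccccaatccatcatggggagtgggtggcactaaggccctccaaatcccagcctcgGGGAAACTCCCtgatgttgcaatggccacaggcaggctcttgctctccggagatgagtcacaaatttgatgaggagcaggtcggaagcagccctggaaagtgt
BLID, glucocorticoid receptor, chr11:122162164-122162364: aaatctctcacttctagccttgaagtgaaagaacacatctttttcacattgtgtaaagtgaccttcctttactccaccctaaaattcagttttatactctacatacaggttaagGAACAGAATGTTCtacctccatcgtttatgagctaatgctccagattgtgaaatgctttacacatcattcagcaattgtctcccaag
SLC25A13, glucocorticoid receptor, chr7:96349682-96349882: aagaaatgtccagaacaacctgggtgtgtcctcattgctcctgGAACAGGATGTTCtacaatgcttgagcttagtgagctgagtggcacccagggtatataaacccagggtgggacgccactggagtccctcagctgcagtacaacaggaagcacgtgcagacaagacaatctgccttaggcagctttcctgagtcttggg
CCN2, TEAD, chr6:131951379-131951579: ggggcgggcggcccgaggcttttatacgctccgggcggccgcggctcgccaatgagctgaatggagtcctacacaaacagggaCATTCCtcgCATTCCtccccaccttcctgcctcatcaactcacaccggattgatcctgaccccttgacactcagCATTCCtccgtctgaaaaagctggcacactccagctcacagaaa
RAI14, TEAD, chr5:34586205-34586405: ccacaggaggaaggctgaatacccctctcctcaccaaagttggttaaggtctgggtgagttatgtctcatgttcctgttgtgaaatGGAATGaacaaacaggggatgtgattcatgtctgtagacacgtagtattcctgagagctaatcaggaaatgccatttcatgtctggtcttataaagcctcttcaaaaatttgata

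The intergenic PHLDA3 peak had an area of 8739 in H1047R, 3886 in WT and 3394 in E545K. The BDKRB1 peak, whose capitals hold 2 overlapping matches, had 4214, 1687 and 2060.2. At both NF-kB windows H1047R stood above the other lists. The BLID peak had an area of 1337 in H1047R, 2712 in WT and 1411 in E545K, and the SLC25A13 peak 950.1, 2396 and 995.5. At these glucocorticoid receptor windows both knock-in lists stood at about the same level and WT above them. The CCN2 stretch lies just before the start of CCN2, which encodes a matricellular protein and is a textbook target of YAP and TEAD, and holds 3 TEAD matches. Its peak had an area of 5942 in H1047R, 18411 in WT and 21077 in E545K. The intergenic RAI14 peak had 2641, 5633 and 3381.

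The lists shared most of their open sequence. Peaks covered 72.4 Mb in H1047R and 67.4 Mb in WT, and 58.1 Mb lay in both, which is 80.3% of the H1047R and 86.2% of the WT bases. The 19139 H1047R peaks without a WT partner made up 17.9% of their list (17.7 to 18.2), and the 10929 WT peaks without an H1047R partner 11% of theirs (10.9 to 11.2). When each list was reduced to the same number of its largest peaks, these counts came closer, to 14517 and 13992. Among the larger peaks of the full lists, described below, H1047R also had more without a partner. That count was not repeated with lists of equal length, and its cause was not tested. The rule left few doubtful cases. The smallest overlap that made a partner was 7 bp, and 20 of 89277 overlapping pairs shared under 50 bp. The smallest gaps that left a peak unpartnered were 1 bp in H1047R and 7 bp in WT, and 9.12% and 8.09% of the unpartnered peaks lay within 500 bp of a peak of the other list.

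Unpartnered peaks were small and far from promoters. Their median area was 293.9 in H1047R and 279.6 in WT, against 800.2 and 747.2 for partnered peaks, where the smallest area in either list was 200. Their median width was 307 and 282 bp, against 529 and 503 bp. In H1047R 2.21% of them lay at a promoter (2.01 to 2.43) and in WT 1.85% (1.61 to 2.12), against 12.8% of partnered peaks in both lists. Among strong peaks, the upper 50% of a list by area, 1574 H1047R peaks (2.95%) and 690 WT peaks (1.4%) had no partner. Distance from genes differed between these: 26.7% of the strong unpartnered H1047R peaks lay over 100 kb from any protein-coding start (24.6 to 29.0) and 40.1% of the WT ones (36.6 to 43.8), while strong partnered peaks stood at 22.1% and 21.6%.

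**Figure D1:**
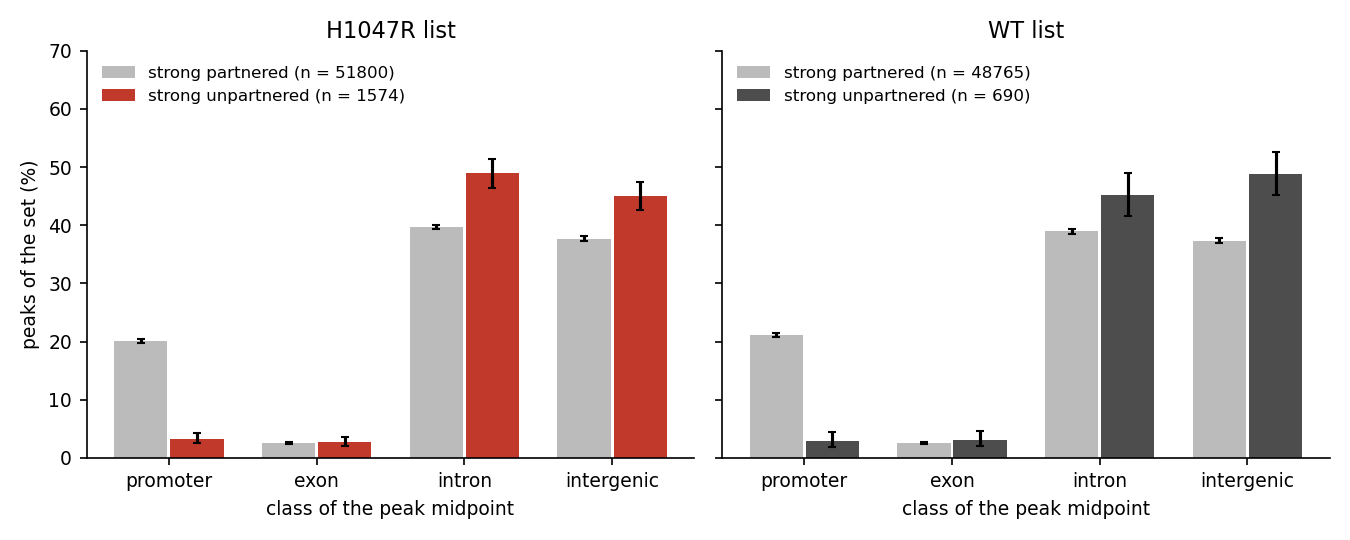
Share of strong peaks by the class of the peak midpoint (promoter, exon, intron or intergenic), in percent of each set, for partnered peaks (grey) and unpartnered peaks (coloured), with the H1047R list on the left and the WT list on the right. Error bars are Wilson 95% intervals. Promoters held 20.1% and 21.2% of partnered strong peaks and 3.3% and 2.9% of unpartnered ones, while introns and intergenic sequence held more of the unpartnered peaks.

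A peak of each list overlapping exactly 1 peak of the other made a pair, and there were 83650 pairs. The median pair was about equal: log2 area of H1047R over WT was 0.04 (interval of the median 0.037 to 0.044), log2 width 0.03, and the summit value differed by -0.042. Of the 53547 pairs with a strong peak, 3771 had an area at least 2-fold higher in H1047R (7.04%) and 1905 at least 2-fold lower (3.56%). The summit value differed the same way in 3758 and 1896 of them. Promoter pairs differed least, with 1.5% higher and 0.531% lower, while intronic pairs stood at 8.45% and 4.21% and intergenic pairs at 8.22% and 4.27%. Promoter pairs were also larger, with a median WT area of 3300, against 642.5 in introns and 639.1 between genes. Ratios spread less among large peaks, and the part of size in this contrast was not tested. By chromosome the median log2 area ran from -0.03 on chromosome 13 to 0.11 on chromosome 7. Counts by a 2-fold ratio of summit values were far smaller, 101 higher and 42 lower. As summit values are on a log10 scale, that bound is unlike 2-fold in area.

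**Figure D2:**
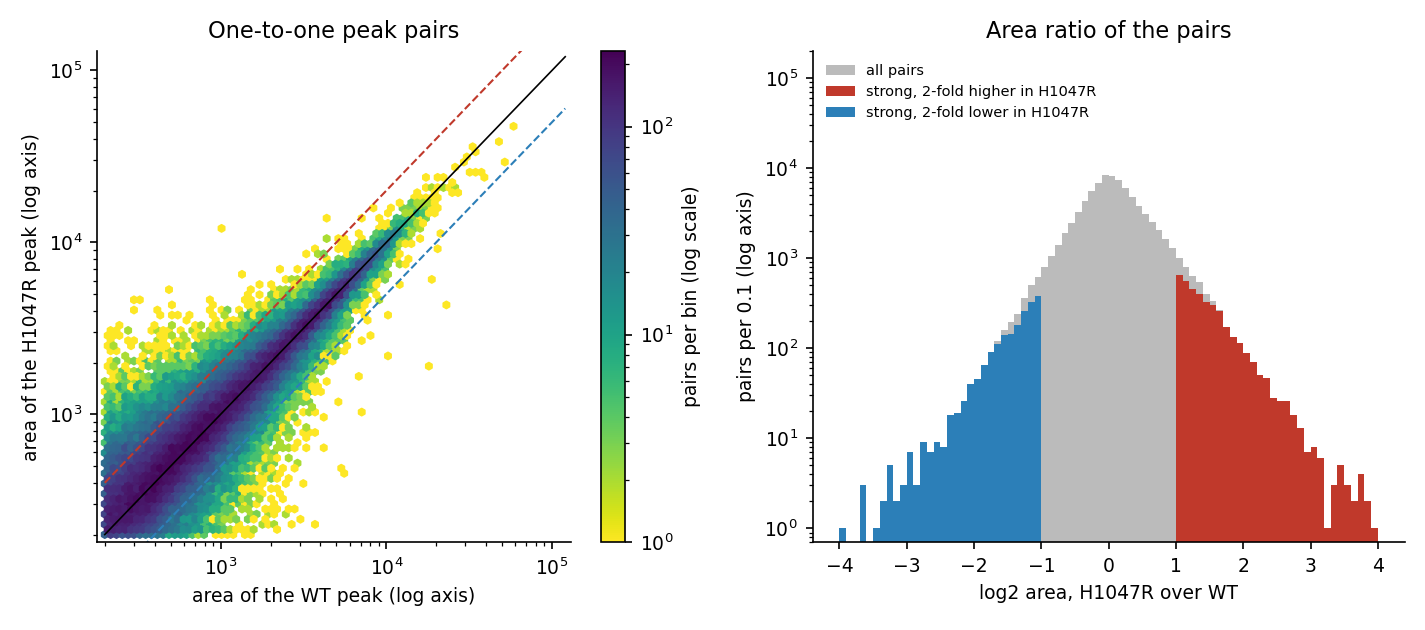
Left, area of the H1047R peak against that of the WT peak for the one-to-one pairs, on log axes, coloured by pairs per bin, with lines for equal area and for 2-fold in either direction. Right, pairs by log2 area of H1047R over WT on a log count axis, with the 3771 pairs higher and the 1905 lower in colour. Most pairs lie along the line of equal area, and the spread narrows for large peaks.

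Some genes of the basement membrane attachment stood among the extremes in either direction, while the strong pairs of their list were split. Of 61 strong pairs at its 9 genes, 3 were higher (4.92%) and 4 lower (6.56%). The net of a gene is its pairs higher plus strong unpartnered H1047R peaks, minus those in the opposite direction. It was 0 at 7 of the 9 genes. The net of the list was -1, and -6 with starts within 50 kb. Pairs leave out peaks that span several peaks of the other list, such as those of PLEC and LAMB3 below. At promoters the list leaned to WT. Of 9 promoters 7 had a smaller area in H1047R (77.8%, against 43.1% of all), and the median log2 area was -0.18, against 0.03 for all. LAMA3 and LAMB3 encode chains of the laminin that epithelial cells bind through the integrin of ITGA6 and ITGB4, and plectin (PLEC) and dystonin (DST) link that integrin to keratin filaments in the hemidesmosome. Of windows of 200 kb, 1 of the 2 with the greatest excess of H1047R coverage held LAMA3 (75.6 kb against 34.2 kb in WT). The 4 windows with the greatest deficit included those of PLEC (75.7 against 107 kb), ITGB4 (47.8 against 74.9 kb) and DST (20.2 against 43.1 kb). Over 12571 windows the median difference was 0.265 kb and the central 95% ran from -2.26 to 3.50 kb. At least 10 kb more stood in 26 windows (0.207%) and at least 10 kb less in 23 (0.183%).

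At LAMB3, which encodes the beta chain, a single H1047R peak of 32239 bp lay over the 3′ part of the gene and past its end into CAMK1G. It overlapped 6 WT peaks (area 69589 against a sum of 27114). The LAMB3 gene body itself was covered to 86.9% in H1047R and 93.2% in WT, and its promoter peak was slightly smaller in H1047R (12092 against 13720.2). Over 110 kb around the gene, peaks covered 58.4 kb in H1047R, 53 kb in WT and 54.9 kb in E545K, while their summed area was 112489 in H1047R, 76770.4 in WT and 92804.5 in E545K.

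LAMA3, which encodes the alpha chain, had its excess inside the gene. Peaks covered 27.9% of its body in H1047R, 13.3% in WT and 17.7% in E545K, with the excess in the 3′ part. The widest H1047R peak of the locus measured 10909 bp and the widest WT peak 4030.0 bp. One of the 8 largest unpartnered H1047R peaks lay there (chr18:23912152-23916029, area 3996).

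ITGB4 encodes the beta-4 integrin subunit. In H1047R peaks covered 23% of its body, against 94.5% in WT and 68.5% in E545K. The WT list held 2 unpartnered peaks there of 11276 and 8535 bp, with areas of 11123 and 6475, and summit values of 3.96 and 3.54. These are wide and low peaks. The promoter peak of ITGB4 had an area of 4859 in H1047R and 11925 in WT. DST resembled it: a pair deep in the gene (WT chr6:56610627-56621618) had areas of 4195 (H1047R), 22739.8 (WT) and 17066 (E545K), and a neighbouring WT peak (area 7012) had no partner. PLEC had a WT peak of 36579 bp and area 70142 that overlapped 5 H1047R peaks summing to 17702 bp and 38386. COL17A1, ITGA6 and CD151, the other hemidesmosome genes listed, had 5, 13 and 1 strong pairs, of which 1, at COL17A1, was past 2-fold, and it was higher in H1047R.

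**Figure D3:**
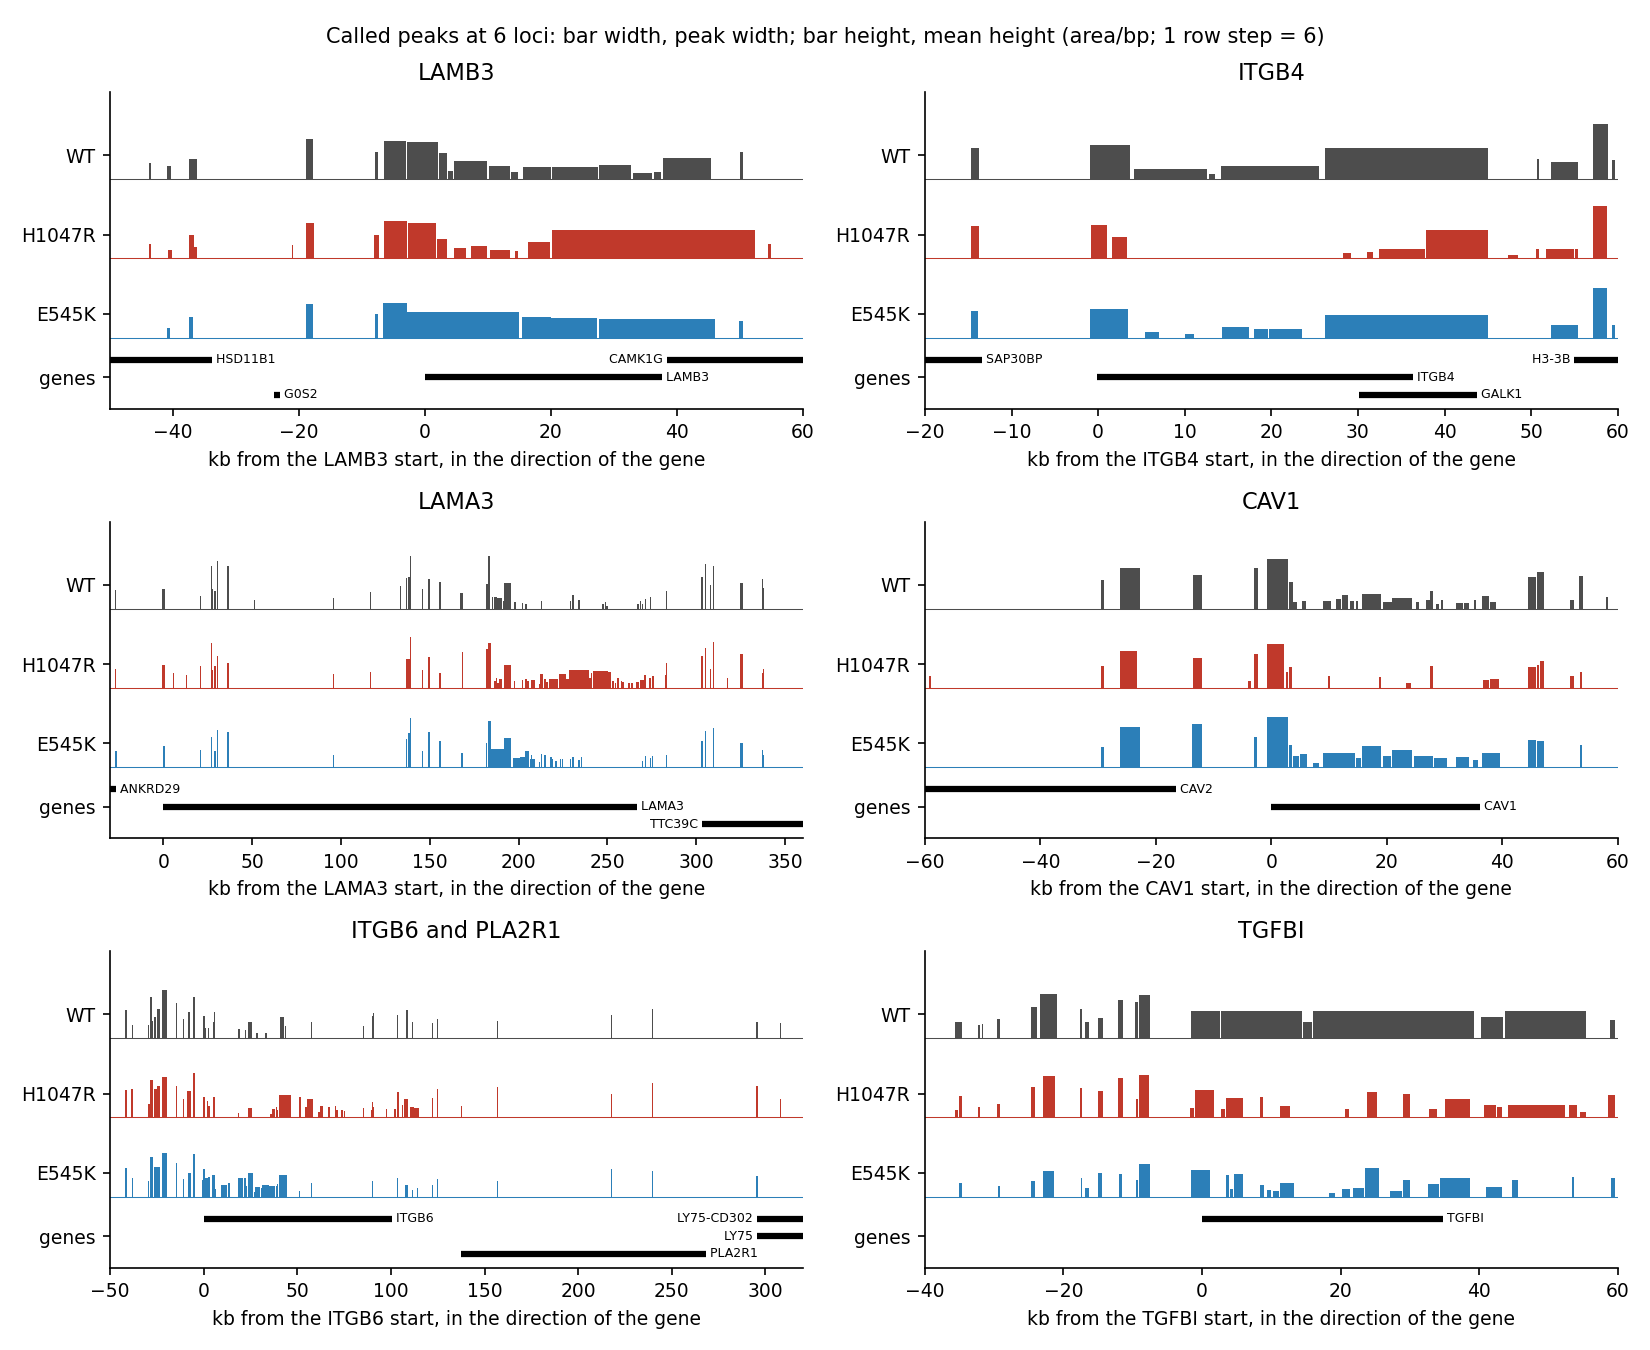
Called peaks of WT (grey), H1047R (red) and E545K (blue) at 6 loci, by distance in kb from the start of the named gene in the direction of its transcription. Bar width is peak width and bar height is area per base pair, with 1 row step equal to 6. Protein-coding genes are drawn as black lines. The H1047R peaks run together past the end of LAMB3 and inside LAMA3 and ITGB6 (left), and the WT peaks run together at ITGB4, CAV1 and TGFBI (right).

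The matrix adhesion list had members on both sides. Of 168 strong pairs at 26 genes, 16 were higher (9.52%, against 7.04% of all) and 10 lower (5.95%, against 3.56%). A net above 0 stood at 10 genes, below 0 at 5 and of 0 at 11. ITGB6 encodes the beta-6 subunit of an epithelial integrin that activates latent TGF-beta. It had 4 pairs higher, 2 lower and 5 strong unpartnered H1047R peaks, and its body was covered to 31.7% in H1047R, 13.2% in WT and 31.7% in E545K. Of its pairs, one in an intron (chr2:160141987-160144938) had areas of 4048 in H1047R, 399.7 in WT and 491.9 in E545K. Among large peaks higher in H1047R, the pair with the largest area ratio lay in ITGB1, the gene of the common beta-1 subunit (chr10:32889570-32892903), with 4583 in H1047R and 289.5 in WT, 15.8-fold. The next pair (chr10:32893035-32896138) had 3165 and 238.6. E545K had no peak at either. Both lie near the 3′ end of the gene, whereas the ITGB1 promoter peak was smaller in H1047R, 7288 against 11926. ITGA2, ITGB8 and ITGA5 had nets of 3, 3 and 2.

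CAV1, which encodes the main coat protein of caveolae, had the mirror image of the ITGB1 pair. At chr7:116540784-116544067 the WT peak had an area of 3675 and the H1047R peak 231.8, a 15.9-fold difference, and E545K had 5219. The body of CAV1 was covered to 63.1% in WT, 82.4% in E545K and 13.4% in H1047R. Of its 9 strong pairs 4 were lower and 1 higher, and 2 strong WT peaks had no partner. NEDD9, a focal adhesion scaffold gene, had a net of -6, and its body was covered to 15.3% in WT, 16.7% in E545K and 6.17% in H1047R. A WT peak over ZYX, the gene of the focal adhesion protein zyxin, measured 11054 bp and overlapped 6 H1047R peaks summing to 6547 bp. TNS4, a tensin gene with the largest WT peak of all, kept an H1047R peak of like size (area 111424 against 117895), but that peak ended short of the promoter window.

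Desmosome and cell junction genes leaned to H1047R at promoters and over all their pairs. Desmosomes and adherens and tight junctions hold epithelial cells to each other. Of 170 strong pairs at 24 genes, promoter pairs included, 16 were higher (9.41%, against 7.04% of all) and 1 lower (0.588%, against 3.56%). The median log2 area of the list's 215 pairs was 0.20, against 0.04 for all pairs. A total of 8 strong H1047R peaks (4.23%, against 2.95% of all) and 1 strong WT peak (0.588%, against 1.4%) had no partner. The 1 lower pair was at TJP1 and the unpartnered WT peak at GRHL3. At the promoters, 2 of 23 had a smaller area in H1047R, where 43.1% of all 12670 promoters with a peak in both lists did, and the median log2 area was 0.21 against 0.03 for all. Of the 23, 6 were higher by at least 0.5 on the log2 scale, where 7.51% of all promoters were, and none was lower by as much. CLDN7, a tight junction claudin gene, had a promoter area of 9859 in H1047R, 2959 in WT and 12079.8 in E545K. OCLN, the gene of occludin, had 5128, 2290.3 and 5198. CLDN1 had 1755, 587.2 and 2699, and CLDN4 had 8076, 4935 and 13613. At these 4 promoters both knock-in lists stood above WT. DSP, the gene of desmoplakin, had 3 pairs higher and 1 unpartnered H1047R peak, and its body was covered to 51.7% against 36.9%. CTNNB1, the gene of beta-catenin, held the second largest unpartnered H1047R peak, an intronic one of 7089 bp (chr3:41242795-41249883, area 7846, summit value 3.80), where E545K had none.

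The kinase pathway itself differed little. At 19 genes of PI3K subunits and lipid phosphatases, 1 of 58 strong pairs was higher (1.72%) and 2 were lower (3.45%). Over all pairs these shares were 7.04% and 3.56%. PIK3CB, the p110-beta gene, had the higher one, and PIK3CG and PIK3IP1, a negative regulator of PI3K, the lower ones. All 14 promoters with a peak in both lists stayed within 0.5 on the log2 area scale. Of 78 strong pairs at 24 AKT and mTOR genes, 3 were higher (3.85%) and 1 lower (1.28%). The lower pair was at TSC1. TBC1D7, which encodes a subunit of the TSC complex, had a net of 4, with 3 strong unpartnered H1047R peaks. EIF4EBP1, the gene of the translation repressor 4E-BP1, had the largest promoter difference of that list (6659.8 against 4243). SGK1, an AKT-related kinase gene, was covered to 2.40% in H1047R, 5.53% in WT and 5.82% in E545K.

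Insulin receptor and adaptor genes had more pairs higher than lower, as did all pairs together. Of 68 strong pairs 8 were higher (11.8%, against 7.04% of all) and 2 lower (2.94%, against 3.56%). No partner stood at 3 strong H1047R peaks of the list (4.41%, against 2.95% of all) and at none in WT. Of the 13 genes 5 had a net above 0, 1 below and 7 at 0, and 6 of 11 promoters were smaller in H1047R. GRB10 and GRB14, adaptor genes whose products restrain the insulin receptor, had nets of 4 and 3. Both lower pairs were at IRS2, which encodes an insulin receptor substrate and is a known FOXO target. The IRS2 promoter peak had an area of 7802 in H1047R, 8226 in E545K and 15365 in WT, and measured 3433, 4955 and 7889 bp.

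FOXO factors and targets held pairs past 2-fold in both directions. Of 131 strong pairs at 20 genes, 15 were higher (11.5%) and 14 lower (10.7%), against 7.04% and 3.56% for all pairs. FOXO1 and FOXO3 themselves had 2 and 7 strong pairs and none past 2-fold. Lower pairs stood at KLF6, FBXO32 and CITED2 with 3 each, TXNIP with 2, and CCNG2, ERBB3 and PIK3IP1 with 1 each. Higher pairs stood at GADD45A with 4, TRIB1 with 3, and SOD2 and FBXO32 with 2 each. KLF6, a zinc-finger factor gene, had a promoter peak of area 55658 and 16889 bp in WT, 34841 and 12547 bp in E545K, and 11334 and 6331 bp in H1047R. TXNIP, whose product restrains glucose uptake, was covered to 35.5% in WT, 91.3% in E545K and 13.9% in H1047R. CITED2 had an unpartnered WT peak at its 3′ end (chr6:139369594-139372241, area 4407). CDKN1B, the gene of the cell cycle inhibitor p27 and another textbook FOXO target, had a promoter area of 4503 in H1047R and 4642 in WT.

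The early response genes of EGF and MAPK signalling leaned to WT at promoters but not over all their pairs. These genes, such as FOS, JUN and EGR1, are transcribed within minutes of growth factor addition. Of 20 promoters 15 had a smaller area in H1047R, and 7 were lower by at least 0.5 on the log2 scale, where 3.31% of all promoters were. The median log2 area was -0.38. Promoters picked for a large WT area leaned the same way, though less. Of the 1267 promoters in the upper 10% of WT area, 62.3% were smaller in H1047R and 6.79% by 0.5 or more, with a median of -0.04. A choice by WT area alone favours smaller H1047R areas, so this set does not show how large promoters behave as a whole. In the largest of 5 groups of all pairs by geometric mean area, 51.5% were larger in H1047R, with a median of 0.008. The FOS peak had an area of 24328 in H1047R, 38663 in WT and 35583 in E545K. EGR1 had 30181, 50715 and 43377. ATF3 had 13704, 24524 and 27002. FOSL2 had 13884, 23484 and 22646, and JUND 12473, 31386 and 27275. At these 5 promoters H1047R stood below both other lists. FOSB had the greatest difference, 4656 against 42347, where the WT peak measured 12181 bp and the H1047R peak 2580.0 bp. Over all its strong pairs, promoter pairs included, the same list had 14 of 117 higher (12%, against 7.04% of all) and 4 lower (3.42%, against 3.56%). KLF10 led with 6 higher pairs, and EGR3 had 3. A KLF10 pair past the 3′ end of the gene (chr8:102644550-102648616) had 4751 in H1047R, 334.6 in WT and 1108 in E545K.

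MAPK feedback genes diverged member by member. They encode phosphatases and adaptors that dampen ERK signalling. Of 117 strong pairs 14 were higher (12%, against 7.04% of all) and 6 lower (5.13%, against 3.56%). DUSP7, an ERK phosphatase gene, had 4 pairs higher, 1 unpartnered H1047R peak and a promoter area of 22056 in H1047R, 8871 in WT and 16023 in E545K. SPRY4 had 3 pairs lower, 1 higher and a promoter area of 5604, 9057 and 4051. DUSP4 and DUSP5 had smaller promoters in H1047R, 8122 against 13456 and 7001 against 12122. ERRFI1, whose product inhibits the EGF receptor directly, had a net of 3, but its body was covered to 53.5% in H1047R against 92.8% in WT, where 1 WT peak of 11830.0 bp overlapped 7 H1047R peaks summing to 5798 bp. Among the 14 ERBB receptors and ligands, HBEGF had a net of 3, BTC and TGFA 2 each, and AREG -1. The EGFR promoter had an area of 11436 in H1047R and 13672 in WT.

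**Figure D4:**
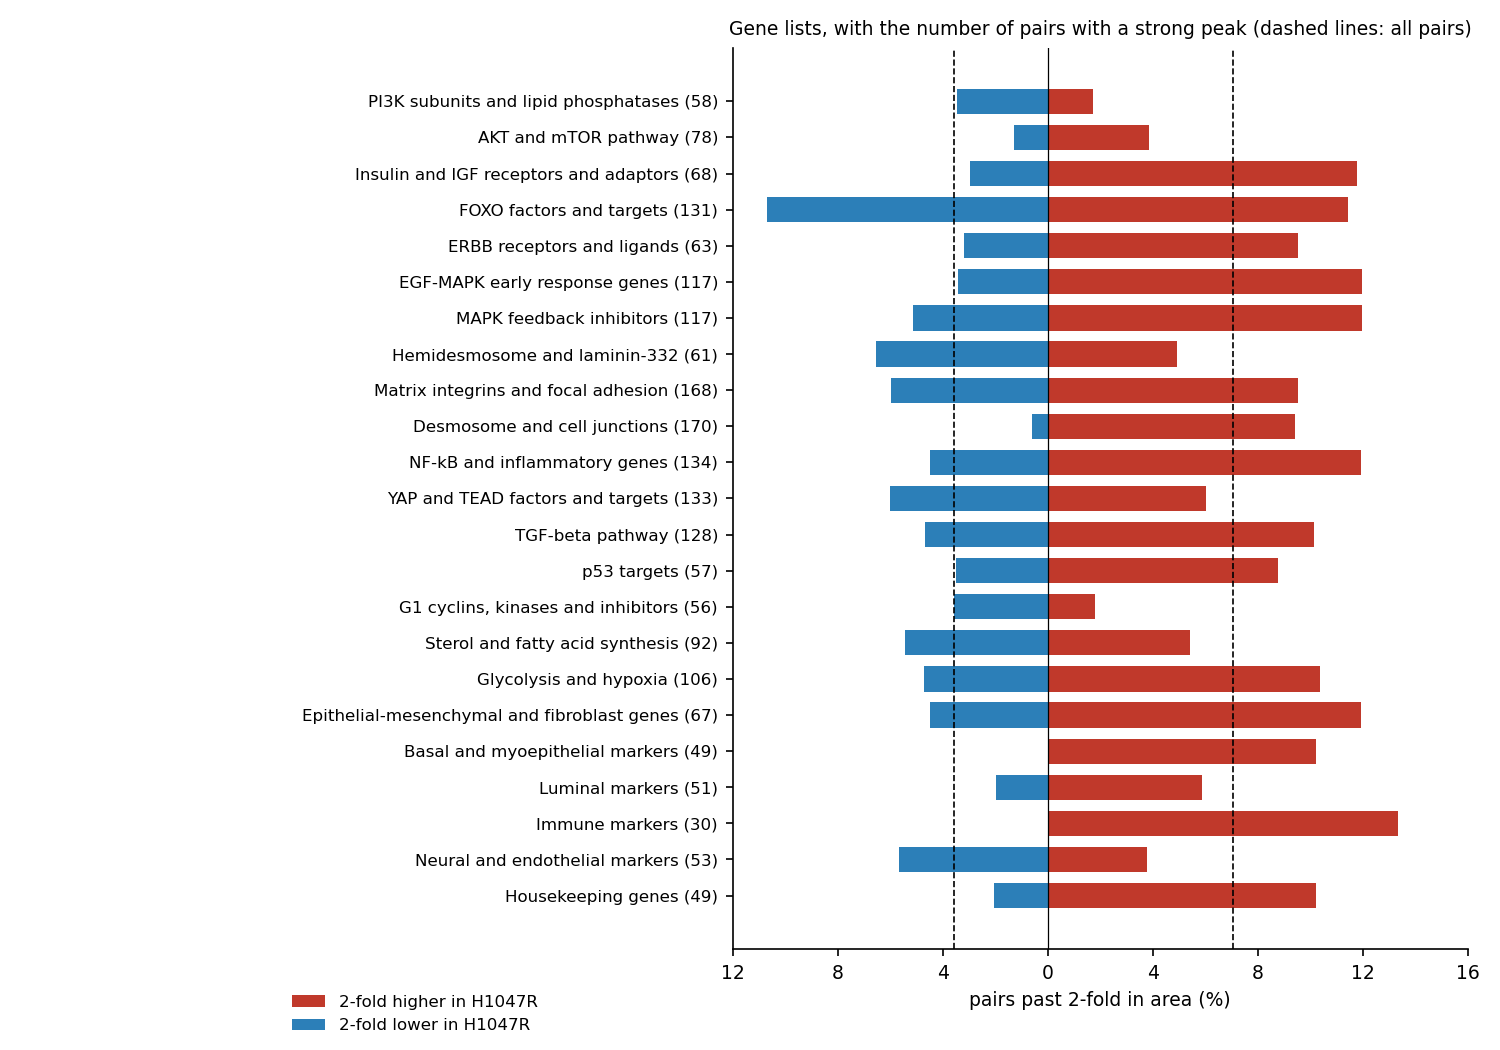
Share of strong pairs at least 2-fold higher (red, right) or lower (blue, left) in H1047R for each gene list, in percent of the list's pairs with a strong peak, whose number stands in brackets. Dashed lines mark the shares over all pairs, 7.04% and 3.56%. The desmosome list has 1 lower pair and the basal and immune lists none. The FOXO list exceeds both lines, as do the MAPK feedback, matrix integrin, NF-kB, TGF-beta, glycolysis and mesenchymal lists.

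NF-kB and inflammatory genes also had members on both sides. Of 134 strong pairs at 32 genes 16 were higher (11.9%, against 7.04% of all) and 6 lower (4.48%, against 3.56%). NFKBIA, which encodes the inhibitor that NF-kB itself induces, had a promoter area of 25033 in H1047R, 10992 in WT and 10520.1 in E545K. CCL20, a chemokine gene, had a net of 4 and a promoter area of 1423 in H1047R, 306.7 in WT and no peak in E545K. TNFAIP3, the gene of the NF-kB inhibitor A20, had a net of 4, and its body was covered to 26.9% against 13.3%. ICAM1, CXCL8 and LIF had larger promoters in H1047R (1161 against 566.8, 1147 against 729.3 and 768.3 against 318.6). At IL1A the promoter was smaller, 782.3 against 1915. At SAA1, the gene of an acute-phase protein and no member of the list, the pair over the 3′ end of the gene (chr11:18267485-18272914) had an area of 11925 in H1047R, 1028 in WT and 4368 in E545K.

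Genes of the TGF-beta pathway had more pairs higher than lower, as did all pairs together, but mostly smaller promoters in H1047R. SMAD3, the gene of a receptor-activated transcription factor, had 6 pairs higher, 1 lower and 2 unpartnered H1047R peaks, and its body was covered to 20.6% in H1047R, 11.7% in WT and 13.5% in E545K. TGFBI, a TGF-beta-induced matrix gene, was covered to 98.8% in WT, 50.6% in E545K and 31.2% in H1047R. INHBA, which encodes an activin subunit, had 3 of 4 strong pairs lower, and a promoter area of 419.8 in H1047R, 1227 in WT and 863.0 in E545K. Over the list 13 of 128 strong pairs were higher (10.2%, against 7.04% of all) and 6 lower (4.69%, against 3.56%). The list net of 6 turned to -2 when starts were sought within 50 kb. Of 21 promoters 15 were smaller in H1047R, and 6 by 0.5 or more on the log2 scale (28.6%, against 3.31% of all).

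YAP and TEAD targets had a smaller promoter in H1047R at 16 of 21 genes, and a lower summit value at 19, where 65.8% of all promoters had a lower summit value. Housekeeping genes were close to this, with 14 of 20 promoters smaller and 18 with a lower summit value. Of the promoters in the upper 10% of WT area, 89.2% had a lower summit value, though their choice by WT area favours that direction. CCN1, like CCN2 a matricellular gene, had a promoter area of 8673 in H1047R, 22314 in WT and 19975 in E545K, with summit values of 9.04, 11.3 and 10.2. AXL, a receptor tyrosine kinase gene, had 3556 and 5465 in H1047R and WT. The factor genes YAP1, TEAD1 and TEAD4 had a log2 promoter area of -0.04, -0.20 and 0.09. The list's strong pairs were split, 8 higher and 8 lower of 133 (6.02% each, against 7.04% and 3.56% of all). WWTR1, the gene of the YAP paralog TAZ, had 4 of the higher ones.

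Basal keratin and basal marker genes had 5 of 49 strong pairs higher (10.2%, against 7.04% of all) and none lower (against 3.56%). Their promoters were split, 8 of 14 smaller in H1047R, with 4 lower (28.6%) and 3 higher (21.4%) by at least 0.5 on the log2 scale. KRT5, a basal keratin gene, had a promoter peak of 49717 in H1047R, 23398 in WT and 42938 in E545K, and SFN 19319.8, 15536 and 16668. KRT17 was the reverse, with 50205 in H1047R, 72755 in WT and 60191 in E545K. In WT that peak of 14680 bp also reached the KRT16 promoter, where H1047R had a peak of 4214, so the KRT16 difference repeats it. S100A2 and the neighbouring S100A4 shared 1 H1047R peak of 24971 bp (area 61704) that overlapped 7 WT peaks with a summed area of 35078.

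Single genes led by the number of peaks past 2-fold or unpartnered were EMP1 and SORCS2 with nets of 9, CRISPLD2 with 8, and CTSC, SMAD3, ITGB6 and CSGALNACT1 with 7. With starts within 50 kb the net was 1 at ITGB6, 2 at CTSC, 3 at SMAD3 and 4 at CRISPLD2, and with strength by summit value it was 5 at EMP1 and 4 at ITGB6, SMAD3 and CSGALNACT1. In all, 2634 genes had a net above 0 (13.8%) and 1110 below 0 (5.81%). EMP1, an epithelial membrane protein gene, had 7 pairs higher and none lower, and its body was covered to 76.5% in H1047R, 96.0% in E545K and 21.8% in WT. CTSC, a lysosomal protease gene, had 5 pairs higher and none lower, with a promoter area of 6501 against 4278. Below 0 stood EZR, NEDD9 and AJAP1 with -6, and SLC38A2, CAV1 and PDGFC with -5. With strength by summit value NEDD9 and CAV1 stood at -1 and SLC38A2 at -3, and SLC38A2 also stood at -3 with starts within 50 kb. SLC38A2 encodes an amino acid transporter, had 4 pairs lower, and was covered to 68.3% in WT, 39.4% in E545K and 25.2% in H1047R. EZR, the gene of the cytoskeletal linker ezrin, gave opposite answers by measure. Of its 18 strong pairs 6 were lower and 1 higher, yet the summed area of peaks in the gene was 68321 in H1047R and 32562 in WT, and with strength by summit value its net was 1.

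Pairs with a large ratio differed in shape. Among pairs with a large ratio some were wide and low in the higher list, such as the CAV1 pair (summit value 3.53 in WT over 3284 bp). Others were compact and high. L3MBTL1, a chromatin-binding protein gene, had an intronic pair (chr20:43513569-43514980) with areas of 5212 in H1047R, 469.2 in WT and 3383 in E545K, and summit values of 9.20 and 3.04. Near NPHP4, 340009 bp from its start, a WT peak (chr1:5651656-5653175) had an area of 5305 and a summit value of 9.31, and its H1047R partner 498.4 and 3.08, with 2765 in E545K. HSD17B2, which encodes a steroid dehydrogenase, had an intronic pair with 3269 in WT, 624.5 in H1047R and 860.2 in E545K, and summit values of 7.89 in WT and 3.29 in H1047R. Over the called pairs, width differed at least 2-fold in 29.3% of those higher and 28.1% of those lower. Across the 53547 pairs with a strong peak, log2 area correlated with log2 width at 0.729 and with the summit difference at 0.899, given as a description since area is built from both.

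H1047R peaks spanned several WT peaks somewhat more often than the reverse. Of the H1047R peaks 1562 spanned at least 2 WT peaks (1.46%), and of the WT peaks 1197 spanned at least 2 H1047R peaks (1.21%). With lists of equal length these counts were 1561 and 1060. The most WT peaks spanned by 1 H1047R peak were 15, and the most H1047R peaks spanned by 1 WT peak were 7, at ERRFI1. The H1047R peak near S100A2 spanned 7 WT peaks and that past the end of LAMB3 spanned 6. LMNA, the gene of the nuclear lamins A and C, PHLDB2 and ZYX followed on the WT side with 6 each.

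At promoters, a peak stood in both lists at 12670 of 19103 genes and in neither at 5896. It stood in H1047R alone at 341 (1.79%) and in WT alone at 196 (1.03%), and at 323 and 159 of these no peak of the other list overlapped it. The largest of the latter in H1047R, after TRAF3IP3, were SLFN13 (area 2406, with 1099 in E545K), ARHGAP28 (2142 and 1596) and ZNF442 (1997 and 564.5). In WT they were PRDM9 (2154, with 2925 in E545K), MTARC2 (2085 and none), CTF1 (2041 and 383.5) and WT1 (2023 and none). Where both lists had a promoter peak, 286 areas were at least 2-fold higher in H1047R (2.26%) and 123 at least 2-fold lower (0.971%).

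Sequence content set the H1047R-higher and WT-higher pairs apart. Motifs were sought on both strands within 100 bp of the summit of the list with the larger area. The NF-kB motif lay in 7.40% of the 3771 pairs higher in H1047R (6.61 to 8.28) and in 3.62% of all pairs with a strong peak. The AP-1 motif TGANTCA, bound by FOS and JUN proteins, lay in 43.3% (41.7 to 44.9) and 36%, but among pairs over 1 kb from a start these shares were 44.8% and 43.1%. In the 1905 lower pairs the glucocorticoid receptor element lay in 3.52% (2.78 to 4.44) against 0.863% of all pairs, the TEAD motif in 29.6% (27.6 to 31.7) against 17.3%, the FOXO element GTAAACA in 6.61% (5.58 to 7.82) against 3.78%, and the STAT motif TTCNNNGAA in 7.35% (6.26 to 8.61) against 5.52%. AP-1 was rarer there, 25.6% against 35.3%. Among the 19103 promoters, 201 bases at the start held the NF-kB motif in 3.92%, the glucocorticoid receptor element in 0.0838%, TEAD in 6.49%, FOXO in 1.24%, STAT in 3.72% and AP-1 in 3.05%. Mean GC content was 50.8% in the higher and 47.3% in the lower pairs, against 53.6% and 53.5% of all pairs at the same summits, and its part in these shares was not tested. The medium of all cells held hydrocortisone, a ligand of the glucocorticoid receptor.

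The shares shifted with the area ratio among the pairs over 1 kb from a protein-coding start. The glucocorticoid receptor element lay in 7.50% of the 160 pairs with log2 area below -2 (4.34 to 12.7), in 2.86% of those from -1.5 to -1, in 1.05% from -0.5 to 0 and in 0.522% from 0.5 to 1. The NF-kB motif went the other way, from 1.76% between -1 and -0.5 to 3.40% between 0 and 0.5 and 9.85% above 2 (7.29 to 13.2), though the 160 pairs below -2 had 5.00% (2.56 to 9.56). TEAD was highest from -2 to -1.5, at 33.9% (29.7 to 38.5), and lowest from 1 to 1.5, at 14.1%. AP-1 had its maximum at modest ratios, 54.4% from 0.5 to 1, and stood at 29.8% above 2 and 20.6% below -2. The bins were chosen after the data were seen.

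**Figure D5:**
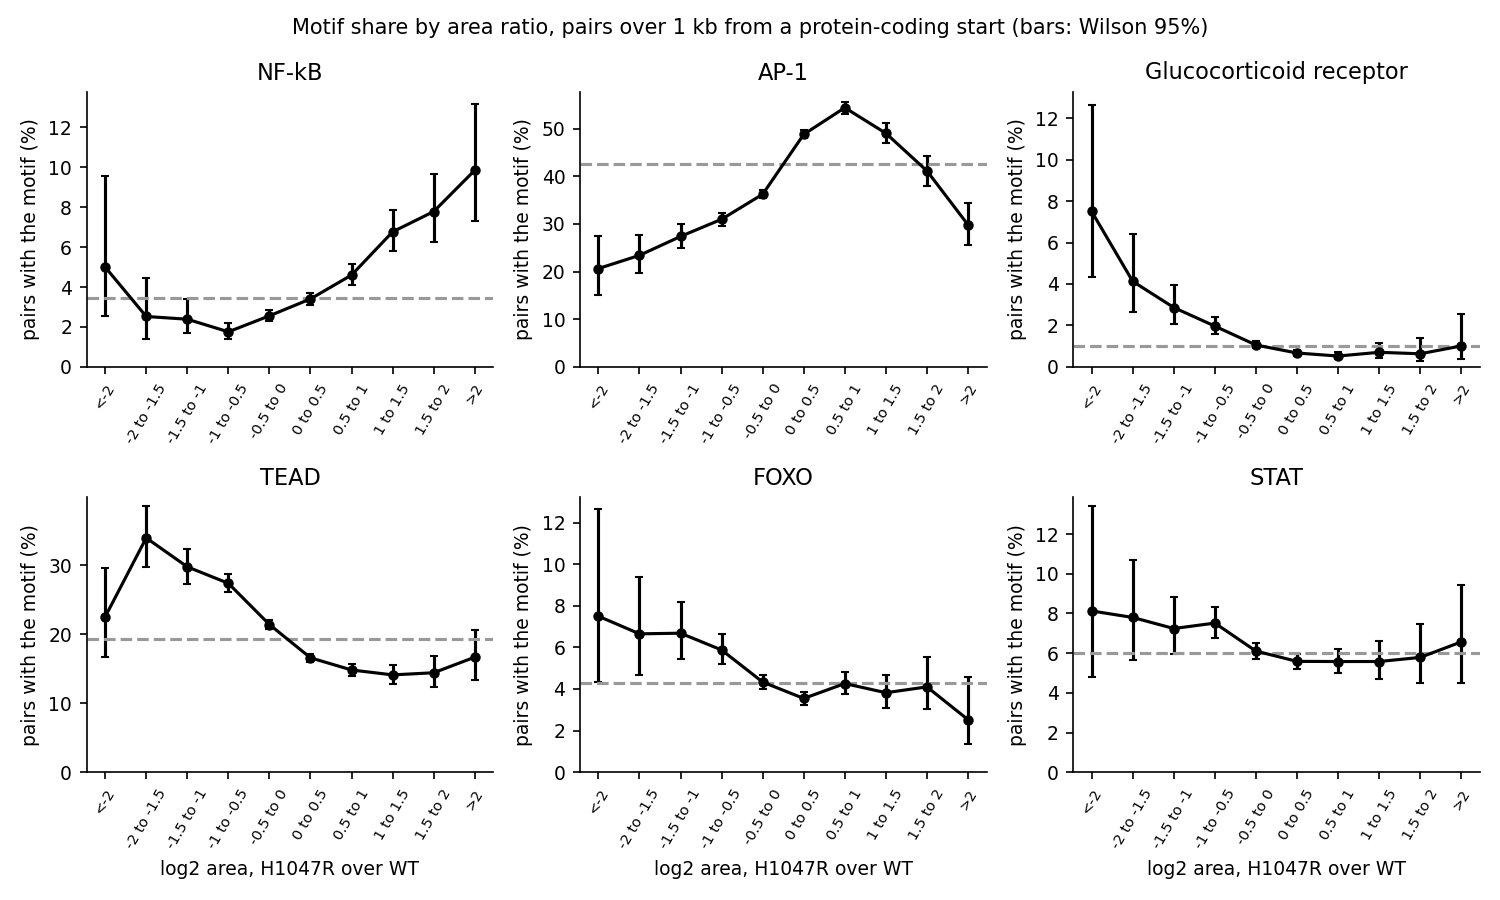
Share of pairs with a motif within 100 bp of the summit, in percent, by log2 area of H1047R over WT in 10 bins, for pairs over 1 kb from a protein-coding start. Bars are Wilson 95% intervals and dashed lines the share over all these pairs. The NF-kB share climbs to 9.85% at the right, the glucocorticoid receptor share to 7.50% at the left, and AP-1 peaks between 0.5 and 1.

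Strong unpartnered peaks shared part of this content. The NF-kB motif lay in 6.10% of the 1574 H1047R peaks (5.02 to 7.39), against 3.78% of strong partnered peaks of that list, and the glucocorticoid receptor element in 3.33% of the 690 WT peaks against 0.935%. On the other side, NF-kB also lay in more of the unpartnered WT peaks, 4.49% (3.18 to 6.31) against 3.31%. SOX motifs (ACAATGG) lay in 3.49% of the H1047R peaks against 2.11%, and in 2.90% of the WT peaks against 2.09%. STAT motifs lay in 9.28% of the WT peaks against 5.39%, and TEAD in 21.9% against 17.6%. For WT peaks over 1 kb from a start the TEAD shares were closer, 22.1% and 20.4%. Unlike in the higher pairs, AP-1 was rarer in the unpartnered H1047R peaks, 29.2% against 36.3%. In the unpartnered WT peaks it was rarer too, 25.4% against 32.7%.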

How the data were processed

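ATAC-seq of MCF-10A cells was used, with 2 samples per genotype. Per the submitters' processing notes, reads were trimmed with Trim Galore 0.4.0 and cutadapt, handled with SAMtools on hg38 and peaks were called with Genrich 0.6.1. No aligner is named there (not given in the sources used here). The authors deposited 1 peak list per genotype. The deposited signal value is an area, the caller's curve summed along the peak, and the deposited -log10 p belongs to the summit. The adjusted column was empty.

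Overlaps, ratios and motif searches were computed with Python 3.11.15, with matplotlib 3.10.9, scipy 1.17.1, pandas 2.3.3 and numpy 2.4.6, on GENCODE release 44 genes and the hg38 sequence. Partners shared 1 bp or more. By area, the upper 50% of each list counted as strong, and a pair was counted when 1 of its peaks was strong. Each peak went to the nearest protein-coding start, for counts per gene within 100 kb. A promoter reached 1 kb either way, and its area is that of the largest overlapping peak. Motifs and their letters were fixed patterns, sought within 100 bp of the summit. Bedtools 2.31.1 gave the same 4 counts, with 0 differences. The code was tested on simulated data, the 98910 WT peaks against a changed copy of themselves with the same bounds. In it 2000 removed, 1000 raised and 1000 lowered peaks were found, with 0 false calls. The copy held no noise, so full recovery was fixed by the design and says nothing of errors between separately called lists.

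Named genes were those with the largest nets, area ratios, unpartnered peaks, spanned peaks and windows in each direction, and members of 23 gene lists. Others were chosen after their values were seen. The peaks, lists and motifs were chosen with earlier results of these data known. Alternatives were stricter areas, lists of equal length, other overlaps, folds, distances and measures, and chromosome 7 left out. Results at some genes are not reported here.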

Additional observations from a re-analysis of the deposited data

How the results depend on the processing

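No paired analysis was possible because each list pools both samples of its genotype, and for the same reason no sample could be left out. Depth is unknown and limits what a missing small peak shows. The cause of each change below was not tested. Of the alternative counts and medians 37 kept within 1.5 times or within the interval of the median, 21 did not and 1 turned. Pairs higher and lower in H1047R numbered 1808 and 958 with areas of 400 or more, 8556 and 5146 at a fold of 1.5, 1127 and 493 at a fold of 3, 1170 and 631 by mean height, 101 and 42 by summit value, and 1207 and 565 with strong as the upper 25%. In each setting more were higher than lower. The median log2 area of pairs was 0.029 with areas of 400 or more, 0.056 with lists of equal length, 0.036 without chromosome 7, 0.017 with both peaks strong, 0.0036 by mean height, and it turned to -0.013 by summit value. With areas of 400 or more 905 and 708 peaks spanned others, and strong peaks without a partner numbered 1574 and 690. With starts within 50 kb the net of the TGF-beta list turned to -2 and that of housekeeping genes to -1, and by summit value that of EZR to 1. Motif ratios that turned were, within 50 bp of the summit, 0.848 for NF-kB in unpartnered WT peaks, 1.10 for STAT in unpartnered H1047R peaks and 0.752 for SOX in lower pairs. For peaks over 1 kb from a start they were 0.951 for TEAD and 0.893 for FOXO in unpartnered H1047R peaks, 0.954 for STAT and 0.990 for SOX in higher pairs, and 0.933 for SOX in lower pairs. STAT in higher pairs stood at 0.988 with strength by summit value. Of the alternative motif ratios 61 kept their direction and size, 14 moved and these 9 turned.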

Other observations

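Other gene lists are described here. Among 20 p53 targets, 5 of 57 strong pairs were higher in H1047R (8.77%) and 2 lower (3.51%), close to the shares over all pairs, and 8 strong H1047R peaks had no partner (11.9% of the list's strong H1047R peaks, against 2.95% of all). BBC3, the gene of the apoptosis inducer PUMA, had a promoter area of 10464 in H1047R, 3106 in WT and 4305 in E545K, and AEN, a nuclease gene, 6196, 2469 and 2722. In lipid synthesis 5 of 92 strong pairs were higher and 5 lower (5.43% each, against 7.04% and 3.56% of all). INSIG1, whose product retains the sterol sensor in the endoplasmic reticulum, had a net of 4. FASN, the fatty acid synthase gene, was covered to 84.9% in WT, 98.3% in E545K and 14.8% in H1047R, through a wide WT peak of 13642 bp with a low summit value of 2.89, while its promoter area was 14291.5 in H1047R and 12916 in WT. Of 106 strong pairs at glycolysis and hypoxia genes 11 were higher (10.4%, against 7.04% of all) and 5 lower (4.72%, against 3.56%). NDRG1 held 4 of the higher and 2 of the lower ones. The cell cycle list differed little, with 1 pair higher and 2 lower of 56 (1.79% and 3.57%, against 7.04% and 3.56% of all). Neither list had a promoter peak at CDKN2A or CDKN2B. A peak list does not tell closed chromatin from absent DNA, and copy number was not tested. E2F2 had a promoter area of 1751 in H1047R, 857.6 in WT and 717.5 in E545K.

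Peaks of 1 list sometimes followed each other with no peak of the other list between them. This was counted after the data were seen. Runs of at least 4 such peaks numbered 208 in H1047R and 129 in WT, but runs of at least 10 numbered 2 in H1047R and 24 in WT. Of those 24, 10 held no E545K peak either. The longest, on chromosome 19, held 22 WT peaks over 2.02 Mb from 30082014 to 32104830, around TSHZ3 and ZNF536, in a stretch of 2249 kb between H1047R peaks. Its peaks had areas from 200.8 to 2705 and a summit value of up to 8.09. The run at AJAP1 on chromosome 1, from 3948431 to 5428969, held 18 WT peaks with areas up to 2561, and that near CNTNAP5 on chromosome 2 held 14 over 3.16 Mb. These runs hold compact peaks spread over long stretches of few peaks. The 12 WT peaks at YWHAZ, in contrast, stood within 25.5 kb, and E545K had 12 peaks there. Of the 2 H1047R runs, the longer, at AGBL4 and BEND5 on chromosome 1, held 15 peaks over 0.626 Mb with areas up to 823.1, and E545K had 13 peaks there. The H1047R run at KLF7 on chromosome 2, from 207081867 to 207116226, held 14 wide, low peaks within 34.4 kb, with a summit value of at most 3.49 and no E545K peak. In the same gene a WT-higher pair at an intron had areas of 1046 (H1047R), 7221 (WT) and 5534 (E545K). What sets the long runs apart was not tested.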
